A study of Schizosaccharomyces pombe with 6 samples.

Results

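The marker genes ura4, leu1 and ade6 of the fission yeast Schizosaccharomyces pombe were followed across 6 tiling arrays of chromatin immunoprecipitation (ChIP). They are 3 of 7483 annotated genes that hold at least 3 array probes. Each gene was read from the probes inside it and set against the probes 1.5 to 6 kb away on each side, because strains may carry a further copy of a marker elsewhere and a probe reports every copy that it can bind. The genes had been picked with values from these same arrays known, so the comparisons are given as descriptions with no test.

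The series compared dimethylation of histone H3 lysine 9 (H3K9me2) between a pds5Δ strain (gene deletion, written pds5D in the labels) and wild type (WT), with 1 array each. It also compared GFP-tagged Pds5 in swi6Δ cells, in clr4Δ cells and in WT cells, with 1 array for each mutant and 2 for WT. All cultures were in logarithmic growth in rich YEA medium at 30 °C and were fixed with 3% paraformaldehyde. Cells for Pds5-GFP were first kept at 18 °C for 2 h, and DMA was added at fixation. The labels give no further alleles, so they do not say where any marker copy sits, and they do not say whether the 2 WT arrays came from separate cultures.

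Heterochromatin in this yeast is built by Clr4, the methyltransferase that places H3K9me2, and by Swi6, a protein of the HP1 family that binds the mark. Cohesin holds sister chromatids together and is enriched in heterochromatin, and Pds5 is a regulatory partner of cohesin. The 3 genes are metabolic markers. ura4 encodes orotidine 5′-phosphate decarboxylase of pyrimidine synthesis, leu1 encodes 3-isopropylmalate dehydrogenase of leucine synthesis, and ade6 encodes phosphoribosylaminoimidazole carboxylase of purine synthesis. As general background, ura4 and ade6 are widely inserted into heterochromatin as reporters, and leu1 is a common site for integrating plasmids.

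The 250 bases before each annotated gene start are shown because the tile with the highest Pds5-GFP ratio at ura4 lies just outside the gene on that side. They are from RefSeq, build ASM294v3, read 5′ to 3′ on the strand of the gene, with matches to TATAAA on either strand in capitals. ura4 and ade6 are on chromosome III and leu1 is on chromosome II.
ura4: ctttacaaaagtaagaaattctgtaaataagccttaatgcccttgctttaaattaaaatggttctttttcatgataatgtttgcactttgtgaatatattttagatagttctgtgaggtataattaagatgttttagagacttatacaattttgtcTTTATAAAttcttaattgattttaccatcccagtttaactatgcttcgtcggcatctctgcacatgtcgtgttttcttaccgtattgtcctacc
leu1: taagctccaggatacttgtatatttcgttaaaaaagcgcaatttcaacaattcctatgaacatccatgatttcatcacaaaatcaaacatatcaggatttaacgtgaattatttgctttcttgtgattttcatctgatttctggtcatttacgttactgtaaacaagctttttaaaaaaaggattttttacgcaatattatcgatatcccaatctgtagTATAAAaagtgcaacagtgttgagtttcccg
ade6: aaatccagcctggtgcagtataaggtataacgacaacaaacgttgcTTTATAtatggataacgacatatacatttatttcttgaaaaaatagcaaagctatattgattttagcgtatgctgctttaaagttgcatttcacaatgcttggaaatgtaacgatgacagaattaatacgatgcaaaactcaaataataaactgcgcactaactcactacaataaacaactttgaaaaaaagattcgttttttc
At ura4 a match on each strand overlapped, at 94 and 92 bases before the gene start. leu1 had 1 match on its own strand at 31 bases, and ade6 had 1 match on the opposite strand at 204 bases. Of 5112 such windows before protein-coding genes, 44.4% held the motif, so its presence in all 3 does not set them apart.

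Every array held 41251 chromosome probes, spaced mostly 300 bp apart, and each value is the log2 ratio of ChIP over whole-cell extract with the median of its array set to 0. The Pds5-GFP WT arrays correlated at r = 0.961 across probes, and the H3K9me2 arrays at r = 0.894. Spots marked as outliers by the scanner software numbered 111 on the pds5Δ array and 1306 on the WT array for H3K9me2, against 2 to 99 on the Pds5-GFP arrays. At pds5 and swi6 the extract channel matched the genotypes. Its median was -6.95 over the 13 probes of pds5 in pds5Δ cells against 0.17 in WT. Over 5 probes of swi6 it was -4.4 in swi6Δ cells against -0.07 and -0.15 in WT. At clr4 the match was less clear. The lowest of 15 probes was at -7.16 in clr4Δ cells and at -0.99 and -1.35 in WT. The median over the annotated span was only -0.41 in clr4Δ cells, against 0.27 and 0.31 in WT. How many clr4 probes fell was not counted. The pds5Δ and WT arrays for H3K9me2 shared a slide, as did the swi6Δ array and WT array 2. The clr4Δ array was alone on its slide, so its slide and its genotype cannot be told apart.

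On the tiles of its annotated place, ura4 showed a tall and narrow block of H3K9me2 and, in WT, of Pds5-GFP. Inside the gene, H3K9me2 averaged 5.79 in pds5Δ cells and 6.68 in WT over the 3 probes measured on both arrays. The surroundings were at -0.05 in pds5Δ cells and -0.09 in WT. Gene minus surroundings was therefore 5.83 in pds5Δ cells and 6.77 in WT, the second highest of 7344 genes on each array. The gene stood far above its surroundings in both strains.

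Single tiles give the edges of the block in part. The labels give fragments of 500 to 1000 bp, longer than the spacing of 300 bp, so signal can spread over neighbouring tiles. The tiles 115800, 116100 and 116400 of chromosome III (tile positions as in the probe names, genome build not given in the sources used here) had H3K9me2 ratios of 5.83, 5.86 and 5.67 in pds5Δ cells and 6.7, 6.84 and 6.5 in WT. Tile 115500, at the 3′ part of the gene, was at 4.94 in pds5Δ cells and was marked as an outlier spot in WT. Beyond the 3′ end, tile 115200 was at 1.47 in WT and was an outlier spot in pds5Δ cells, and tile 114900 was at 1.55 in pds5Δ cells and was an outlier spot in WT. Beyond the 5′ end, tile 116700 was an outlier spot on both arrays, and tile 117000 was at 1.6 in pds5Δ cells and was an outlier spot in WT. Tile 117300 was at 1.32 in pds5Δ cells and 1.56 in WT, and by tile 117600 the ratios were 0.39 in pds5Δ cells and 0.93 in WT. The tiles measured beyond each end of the gene were thus several log2 units below those inside it, although some of the nearest tiles were measured in 1 strain or in neither.

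**Figure D1:**
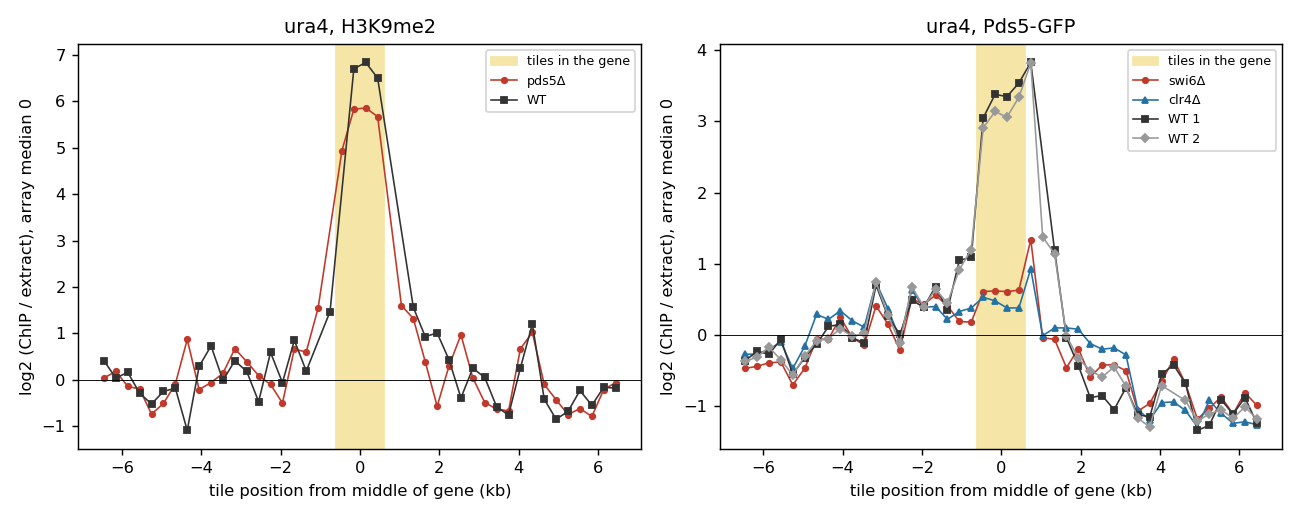
Log2 ratio of ChIP over extract for each tile at ura4 (y axis) against distance from the middle of the gene in kb (x axis), for H3K9me2 in pds5Δ and WT cells (left) and Pds5-GFP in swi6Δ, clr4Δ and WT cells (right); shading marks tiles in the gene, outlier spots are left out, and lines join neighbouring tiles. H3K9me2 averaged 5.79 in pds5Δ cells and 6.68 in WT over the shared tiles, and the Pds5-GFP block of WT was low in swi6Δ and clr4Δ cells.

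Between the strains, gene minus surroundings at ura4 differed by -0.93 (pds5Δ minus WT), or 1.91-fold lower in pds5Δ cells. This fell just short of the size of 1 log2 unit used to call a difference. The side on which it falls depends on the processing. It was -1.07 with loess, -1.03 with normexp background correction and -2.38 with the arrays scaled to equal deviation, all past that size. With each array averaged over its own unmarked spots, which keeps tile 115500 for pds5Δ alone, the difference was -1.14. Restricting the comparison to spots unmarked on every array was decided after the values of single tiles had been seen, so neither side of the threshold is given as a result. Over all annotated genes, 0.191% of 7344 were lower by 1 or more and 0.368% were higher. Over protein-coding genes alone, a set added after the shares over all genes had been seen, 0.156% were lower and 0.4% higher. The difference lay in the ChIP channel, which gave -0.79, while the extract channel gave 0.14.

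Pds5-GFP at ura4 was low in both heterochromatin mutants. Over the 4 probes of the gene it averaged 0.62 in swi6Δ cells, 0.44 in clr4Δ cells, and 3.33 and 3.11 on the WT arrays. The surroundings were alike on every array, at -0.46 in swi6Δ cells, -0.37 in clr4Δ cells, and -0.49 and -0.47 in WT. In the gene, each mutant array lay below both WT arrays, but the share of all genes separated in this way was not counted.

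Gene minus surroundings for Pds5-GFP was 1.07 in swi6Δ cells, 0.81 in clr4Δ cells and 3.7 ± 0.17 in WT (SD, n = 2), where it ranked first of 7441 genes on each WT array. It was lower than WT by 6.18-fold in swi6Δ cells (log2 difference -2.63) and by 7.42-fold in clr4Δ cells (log2 difference -2.89). The differences from each WT array separately were -2.75 and -2.51 for swi6Δ, and -3.01 and -2.77 for clr4Δ. In each comparison this was the second lowest value of 7441 genes. Over all annotated genes, 0.121% were lower by 1 or more than both WT arrays in swi6Δ cells and 0.188% in clr4Δ cells, and 0.0269% were higher in each. Over protein-coding genes alone, 0.0663% were lower and 0.0221% higher in each mutant. The swi6Δ and clr4Δ comparisons share the WT arrays and are not independent.

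In the mutants the ratio of the gene was no longer among the highest. Its level of 0.62 in swi6Δ cells ranked 1009 of 7441 genes from the top and 0.44 in clr4Δ cells ranked 1682, below leu1 (0.74 in swi6Δ cells, 0.85 in clr4Δ cells) and ade6 (0.76 in swi6Δ cells, 0.98 in clr4Δ cells). Gene minus surroundings ranked higher, at 90 in swi6Δ cells and 361 in clr4Δ cells, beside surroundings of -0.46 in swi6Δ cells and -0.37 in clr4Δ cells. These surroundings combine unlike sides. The 3′ side averaged -0.14 in swi6Δ cells, 0.09 in clr4Δ cells, and -0.02 and -0.03 in WT. The 5′ side averaged -0.81 in swi6Δ cells, -0.86 in clr4Δ cells, and -0.98 and -0.93 in WT. The ranks of gene minus surroundings thus rest in part on the low 5′ side. Among single tiles the highest was 116700, which lies 225 bp outside the annotated start of ura4. It was at 1.34 in swi6Δ cells, 0.93 in clr4Δ cells, and 3.83 and 3.82 in WT. On both H3K9me2 arrays this tile was marked as an outlier spot and has no value here. The tile lies over the upstream stretch printed above, but fragments of 500 to 1000 bp do not allow the signal to be placed within it.

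The extract channel bears on the number of ura4 copies. Gene minus surroundings in the extract was 0.47 in pds5Δ cells and 0.33 in WT on the H3K9me2 arrays, over 3 probes of the gene. On the Pds5-GFP arrays it was 0.95 in swi6Δ cells, 0.88 in clr4Δ cells, and 0.86 and 0.51 in WT, over 4 probes. The added probe, tile 115500, had an extract value of 1.02 in pds5Δ cells, where the 3 probes averaged -0.34. The H3K9me2 and Pds5-GFP arrays therefore cannot be compared with each other in this measure. The ChIP channel alone gave -2.36 for swi6Δ and -2.69 for clr4Δ, close to the differences of the ratio. Copies at the native place and copies inserted elsewhere cannot be told apart with these probes.

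The genes beside ura4 did not share its high levels where they were measured. tam14 and new25 rest on 1 probe each, so their ratios are those of single tiles beside the gene. tam14 had no probe measured on both H3K9me2 arrays, and pmp20 rests on 3 probes. tam14, at 333 bp on the 3′ side, had Pds5-GFP ratios of 0.19 in swi6Δ cells, 0.33 in clr4Δ cells, and 1.05 and 0.92 in WT. new25, at 953 bp on the 5′ side, had H3K9me2 ratios of 0.39 in pds5Δ cells and 0.93 in WT. pmp20, at 1597 bp on that side, was at 0.44 in pds5Δ cells and 0.1 in WT. In WT, and for H3K9me2 also in pds5Δ cells, these ratios lay far below those of ura4. In swi6Δ and clr4Δ cells, where ura4 itself had Pds5-GFP ratios of 0.62 (swi6Δ) and 0.44 (clr4Δ), the gap to tam14 was small.

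Most other strongly marked genes sat in broad domains. Of 18 protein-coding genes with an H3K9me2 ratio of 5 or more in WT, a level chosen after the values were seen, the 17 other than ura4 had surroundings with a median of 4.91. ura4 had the second lowest surroundings, after mae2 (gene 6.8, surroundings -0.32), which encodes malic enzyme and was named after its values were seen. These surroundings are those of the annotated place. The ura4 probes may also report a copy elsewhere, whose own surroundings are not known here. In pds5Δ cells the ratio of ura4 was 0.89 log2 units below WT. The other 17 ranged from -0.77 to 0.43 with a median of -0.28. All were picked by high values on this same WT array, which by itself favours lower values in pds5Δ cells. The place of ura4 in this range is therefore not read as an effect of the deletion. For Pds5-GFP, ura4 lay within the range of the others, at -2.61 in swi6Δ cells (others -3.23 to -1.7) and -2.78 in clr4Δ cells (others -3.39 to -1.66).

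**Figure D2:**
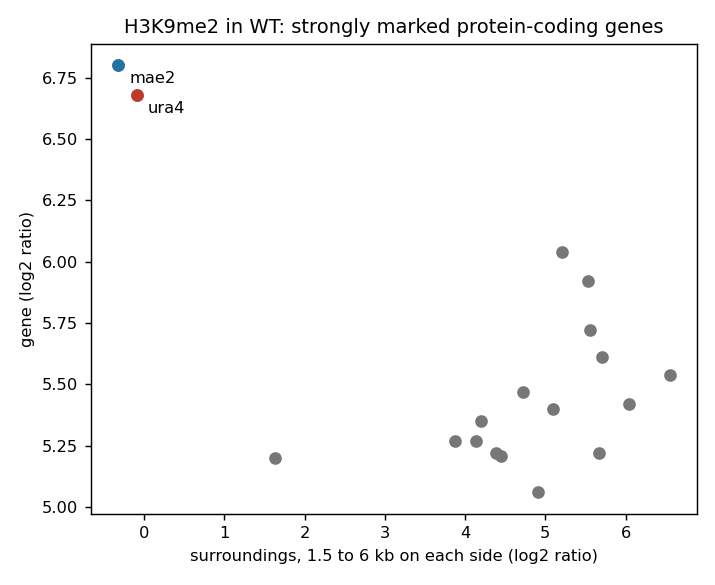
H3K9me2 log2 ratio of the gene (y axis) against that of its surroundings (x axis) in WT, 1 array, for the 18 protein-coding genes with a ratio of 5 or more; each point is a gene. ura4 and mae2 stand at surroundings of -0.09 and -0.32, against a median of 4.91 for the genes other than ura4. Surroundings are those of the annotated place, and those of any further ura4 copy are not known.

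The genes most like ura4 over all 6 arrays, by Euclidean distance between log2 ratios among 7322 genes, were the long non-coding RNA genes SPNCRNA.390, SPNCRNA.389 and SPNCRNA.5507. They lie at tiles 2131500 to 2138100 of chromosome II, and their distances were 0.63, 0.65 and 0.67. SPNCRNA.390 and SPNCRNA.5507 overlap there. SPNCRNA.390 had H3K9me2 ratios of 6.07 in pds5Δ cells and 6.37 in WT. Its Pds5-GFP ratios were 0.2 in swi6Δ cells, 0.45 in clr4Δ cells, and 3.38 and 3.33 in WT. The likeness is a description over 6 values and does not place a copy of ura4.

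leu1 had no such block in WT. Its H3K9me2 ratio averaged 1.36 in pds5Δ cells and -0.01 in WT over 4 probes, with surroundings of 0.41 in pds5Δ cells and 0.12 in WT. The tiles 1976100, 1976400, 1976700 and 1977000 were at 1.76, 1.08, 1.12 and 1.48 in pds5Δ cells and at 0.6, -0.6, -0.26 and 0.21 in WT. Each of the 4 was higher in pds5Δ cells, and the surroundings were also higher there, by 0.28 on average. The 4 are neighbouring probes on 1 array for each strain and not replicates.

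Gene minus surroundings at leu1 was 0.95 in pds5Δ cells and -0.13 in WT, a difference of 1.09 or 2.12-fold, past the size of 1. It was the 23rd highest of 7344 genes, of which 0.368% were higher by 1 or more. Most of it came from the extract and not from the ChIP. In the ChIP channel, gene minus surroundings was -0.27 in pds5Δ cells and -0.47 in WT, a difference of 0.2. In the extract it was -1.23 in pds5Δ cells and -0.34 in WT, a difference of -0.89, the 21st lowest of 7344 genes. The extracts of the Pds5-GFP arrays stood at -0.32 in swi6Δ cells, -0.04 in clr4Δ cells, and -0.25 and -0.55 in WT. The pds5Δ value was the lowest of the 6, but the probe sets differed. The H3K9me2 arrays used 4 probes of the gene and 24 around it, and the Pds5-GFP arrays used 5 and 26. The 2 sets of arrays therefore cannot be compared strictly in this measure. With 1 array for each strain, a lower extract signal over leu1 and more H3K9me2 cannot be told apart in the ratio.

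Pds5-GFP at leu1 was modest on every array, and no strain was called different. The gene averaged 0.74 in swi6Δ cells, 0.85 in clr4Δ cells, and 0.83 and 1.02 in WT, over surroundings of 0.52 in swi6Δ cells, 0.31 in clr4Δ cells, and 0.39 and 0.37 in WT. Gene minus surroundings was 0.21 in swi6Δ cells, 0.53 in clr4Δ cells and 0.54 ± 0.15 in WT (SD, n = 2). The differences of -0.33 for swi6Δ (-0.56 with normexp) and -0.01 for clr4Δ did not reach the size of 1. Among 7441 genes, -0.33 was the 95th lowest for swi6Δ, toward the low end, and -0.01 was the 3360th lowest for clr4Δ. Ratios next to the gene were similar, as at apc10, a subunit of the anaphase-promoting complex 125 bp away, with 0.46 in swi6Δ cells, 1.04 in clr4Δ cells, and 0.9 and 0.87 in WT.

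ade6 followed its surroundings in H3K9me2. H3K9me2 averaged 0.44 in pds5Δ cells and 0.08 in WT over 6 probes, with surroundings of 0.56 in pds5Δ cells and 0.19 in WT. Gene and surroundings were higher in pds5Δ cells by nearly the same amount, 0.36 and 0.37, and gene minus surroundings differed by -0.01. The level of the gene alone would have shown a difference that its surroundings shared.

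Pds5-GFP at ade6 averaged 0.76 in swi6Δ cells, 0.98 in clr4Δ cells, and 0.91 and 1.04 in WT. The surroundings combine unlike sides. On the 5′ side they averaged 1.41 in swi6Δ cells, 1.56 in clr4Δ cells, and 1.1 and 1.3 in WT. On the 3′ side they averaged 0.17 in swi6Δ cells, 0.14 in clr4Δ cells, and 0.22 and 0.14 in WT. Gene minus surroundings was -0.03 in swi6Δ cells, 0.13 in clr4Δ cells and 0.28 ± 0.05 in WT (SD, n = 2). The differences of -0.31 for swi6Δ and -0.15 for clr4Δ were short of the size of 1. So were those with normexp background correction, at -0.82 for swi6Δ and -0.29 for clr4Δ. Among 7441 genes, -0.31 was the 115th lowest for swi6Δ, toward the low end, and -0.15 was the 990th lowest for clr4Δ.

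A broad Pds5-GFP plateau lay on the 5′ side of ade6, over bub1, a spindle checkpoint kinase gene 284 bp away. bub1 had ratios of 1.85 in swi6Δ cells, 2.0 in clr4Δ cells, and 1.49 and 1.7 in WT. Its highest tile, 1314900, was at 2.46 in swi6Δ cells, 2.78 in clr4Δ cells, and 1.91 and 2.25 in WT. H3K9me2 at bub1 was 0.73 in pds5Δ cells and 0.28 in WT. Pds5-GFP here was thus at least as high in the mutants as in WT, unlike at ura4, though no test was made.

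**Figure D3:**
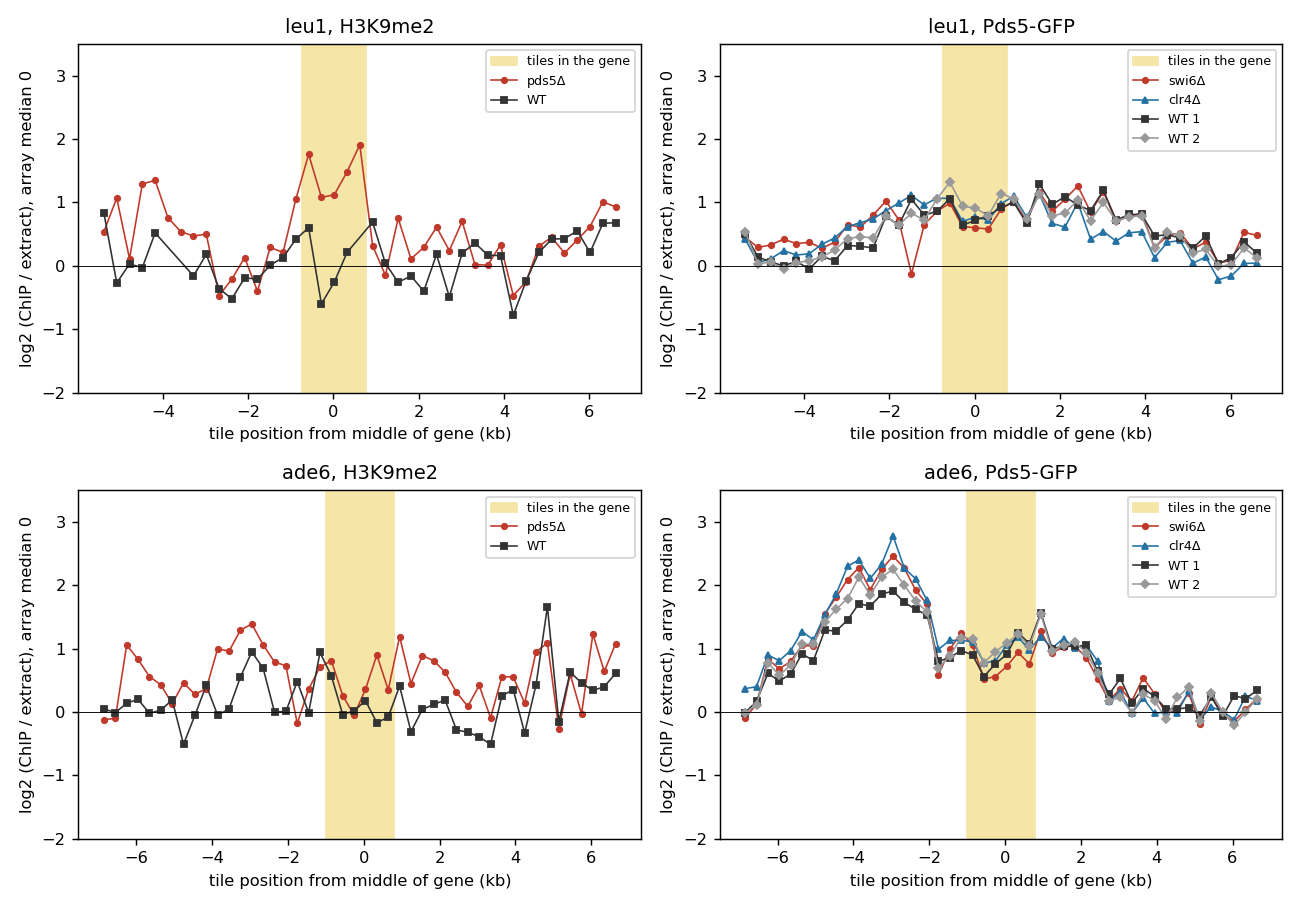
Log2 ratio of ChIP over extract for each tile (y axis) against distance from the middle of the gene in kb (x axis) at leu1 (top) and ade6 (bottom), for H3K9me2 in pds5Δ and WT cells (left) and Pds5-GFP in swi6Δ, clr4Δ and WT cells (right); shading marks tiles in the gene. H3K9me2 over leu1 averaged 1.36 in pds5Δ cells and -0.01 in WT, and the Pds5-GFP plateau to the left of ade6 reached 2.46 in swi6Δ cells, 2.78 in clr4Δ cells, and 1.91 and 2.25 in WT.

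Side by side, the markers differed in level and in response. In WT, H3K9me2 gene minus surroundings was 6.77 at ura4, -0.13 at leu1 and -0.11 at ade6. For Pds5-GFP in WT it was 3.7 ± 0.17 at ura4, 0.54 ± 0.15 at leu1 and 0.28 ± 0.05 at ade6 (SD, n = 2). leu1 and ade6 lay close together beside ura4. In the extract, the difference was -0.89 at leu1 in pds5Δ cells, and the other differences of the 3 genes ranged from -0.15 to 0.36.

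**Figure D4:**
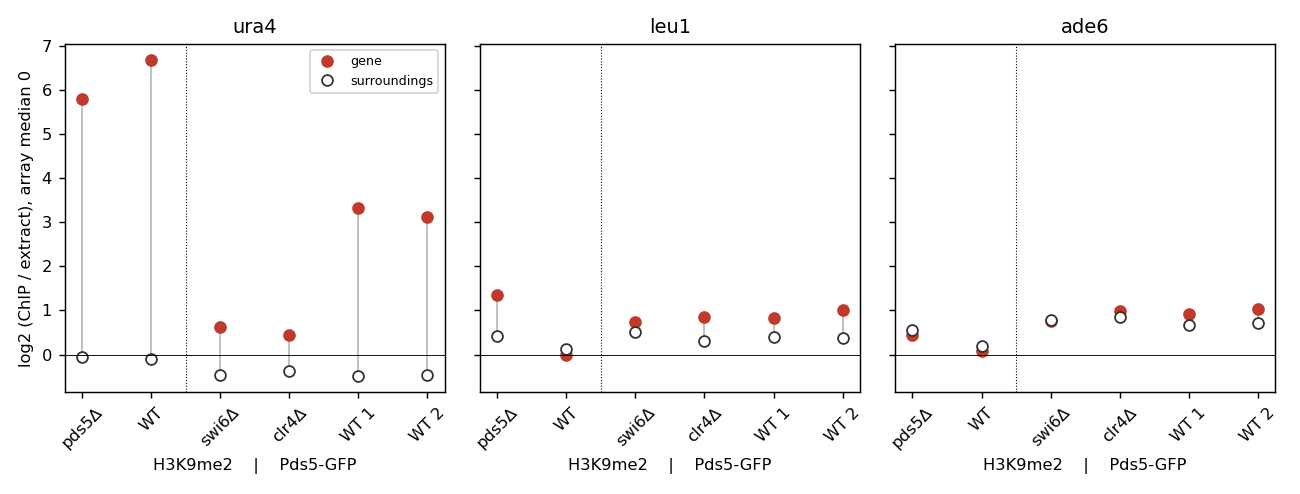
Mean log2 ratio of ChIP over extract (y axis) in the gene (filled) and in its surroundings 1.5 to 6 kb away (open) on each of the 6 arrays (x axis), with H3K9me2 left of the dotted line and Pds5-GFP right of it. At ura4 the gene stood at 5.79 in pds5Δ cells and 6.68 in WT for H3K9me2, while at ade6 the gene lay close to the mean of its surroundings. For Pds5-GFP that mean combines a high 5′ side and a low 3′ side.

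**Figure D5:**
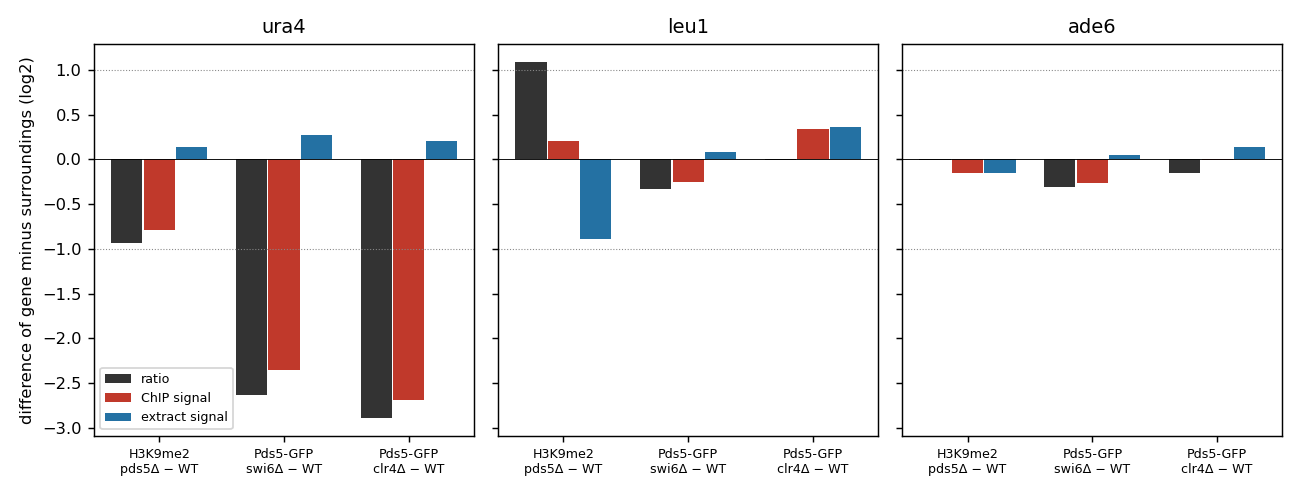
Difference between mutant and WT in gene minus surroundings (log2, y axis) for the 3 comparisons (x axis), computed from the ratio, the ChIP signal alone and the extract signal alone; dotted lines mark 1 and -1, and Pds5-GFP bars use the mean of the 2 WT arrays. At leu1 in pds5Δ cells the ratio gave 1.09, the ChIP 0.2 and the extract -0.89.

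Among other genes of the same pathways, 1 reached the size of 1 in any comparison. Of 4 pyrimidine genes (ura1, ura2, ura3 and ura5), none was higher or lower by 1 or more in any comparison, and their H3K9me2 differences ranged from -0.61 (ura2) to 0.27, with a median of 0.02 against 0.01 over all genes. The leucine genes leu2 and leu3 had H3K9me2 differences of 0.13 to 0.5 and none reached 1. Of 9 purine genes, 1 was higher in H3K9me2, namely ade5, an enzyme of purine synthesis, with a difference of 1.02. Its gene ratios were 1.96 in pds5Δ cells and -0.33 in WT. Gene minus surroundings was 0.84 in pds5Δ cells and -0.18 in WT, so its surroundings were also higher in pds5Δ cells. Over all annotated genes, 0.368% were higher and 0.191% lower by 1 or more in that comparison. The lowest purine difference was -0.84 at ade10, and did not reach that size. The gene ratio of ade10 was nearly the same in both strains, 0.24 in pds5Δ cells and 0.3 in WT. Its difference lay mostly in higher surroundings in pds5Δ cells, unlike at ura4, where the gene itself was lower. No purine gene was past that size for Pds5-GFP in swi6Δ or clr4Δ cells, where 0.121% of all genes were lower in swi6Δ cells, 0.188% were lower in clr4Δ cells and 0.0269% were higher in each. Of 9 other strain markers, 7 were measured for H3K9me2 and 8 for Pds5-GFP, and none was called. lys1 had H3K9me2 ratios of 2.65 in pds5Δ cells and 3.12 in WT, but its gene minus surroundings was only 0.03 in pds5Δ cells and 0.14 in WT.

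The genes closest in pattern to leu1 were arf6, SPNCRNA.5430 and nop16, at distances of 0.21, 0.27 and 0.38. SPNCRNA.5430 shares 4 tiles with leu1, so its likeness is that of the same probes. Those closest to ade6 were SPNCRNA.7311, which shares 5 tiles with it, scj1 and atg7, at 0.14, 0.22 and 0.23.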

How the data were processed

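Genomic DNA from ChIP (Cy5) and whole-cell extract (Cy3) was hybridised to 2-colour Agilent tiling arrays, with the same dye orientation on all 6. Per the file headers, the authors used Agilent Feature Extraction 12.0.3.1, whose deposited processed intensity values are background-subtracted and scaled by a linear dye factor; the deposited LogRatio is log10 of Cy5 over Cy3. The authors' deposited value table holds log2 ratios that are not centred, within 0.01 of the scanner's for all but 1 to 8 probes an array. Other deposited columns (flags of outlier, saturated or dim spots) were used as filters; no spot was saturated.

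The log2 ratio of processed signals was centred on the median of each array, without loess. Spots marked as outliers were left out, and each comparison used the probes unmarked on all its arrays, a rule adopted after single tiles had been seen. Gene minus surroundings was the mean over the gene less the mean 1.5 to 6 kb on each side. A difference was called at 1 log2 unit (for Pds5-GFP, beyond both WT arrays). No p-value is given: each mutant had 1 array, so their number limits the precision.

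ura4 was placed on tiles 115500 to 116400; leu1, ade6 and other genes were placed by matching the annotation (ASM294v3) to the tiles with shifts, some set for chromosome I after the files were read. The best local shift differed from the one used by 100 bp at ade6 and by 0 bp at ura4 and leu1. The members and gene lists were chosen with earlier results of these data known. The text names the members, genes within 6 kb, listed pathway genes past the size rule, the deleted genes and the 3 genes nearest in pattern; mae2 and bub1's plateau tile were singled out after values were seen. Python 3.11.15, numpy 2.4.6, pandas 2.3.3, matplotlib 3.10.9 and limma 3.58.1 in R 4.3.3 (loess and normexp alternatives, offset 50) were used, and the scripts were tested on simulated data.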

Additional observations from a re-analysis of the deposited data

How the results depend on the processing

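The ura4 differences for Pds5-GFP stayed past the size of 1 under all alternatives tried, at -4.02 to -2.28 for swi6Δ and -3.11 to -2.53 for clr4Δ. The ura4 difference for H3K9me2 (-0.93) was lower in pds5Δ cells throughout, at -2.38 to -0.6, but went past 1 with loess (-1.07), arrays scaled to equal deviation (-2.38), normexp (-1.03) and each array's own unmarked spots (-1.14). The leu1 difference for H3K9me2 (1.09) no longer reached 1 with the authors' deposited table (0.99), the ChIP signal alone (0.2) or the gene widened by 500 bp (0.67). The ade6 difference for H3K9me2, -0.01, took the other sign with loess (0.04), equal deviation (0.02), the widened gene (0.02) and the shift of best local fit (0.05). The clr4Δ difference at leu1, -0.01, did so with the ChIP signal alone (0.34) and the widened gene (0.03), and at ade6, -0.15, with the median over probes (0.04); none was called. Leaving out 1 WT array gave -0.12 to 0.09 for clr4Δ at leu1. Own unmarked spots, the best local shift and the protein-coding background were chosen after seeing the data. For swi6Δ, the uncalled differences were -0.82 to -0.26 at ade6 and -0.56 to -0.22 at leu1, lowest with normexp. In all, 102 of 117 recomputed values kept direction and side of the size rule. No paired analysis was possible because each mutant has 1 array and only the WT group of Pds5-GFP has a second. At least 98.4% of spots on each array were well above background, and each mutant rests on 1 array. The cause of these changes was not tested, except that fewer or other probes enter when spots are left out.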
